A study of Mus musculus with 8 samples.

Results

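The probes described here measure long intergenic noncoding RNAs (lincRNAs) taken from mouse lists, in hearts that pumped against a narrowed aorta and in control hearts. They are the noncontrol probes of a one-colour (Cy3) Agilent array whose names begin with mouselincRNA. There were 649 of them among 60930 noncontrol probes, each printed as a single spot per array. All mice were wild type male C57BL/6J, 8 to 10 weeks old and 24 to 26 g in weight. The banded group had the descending aorta tied with a suture against a 26-gauge needle, and the sham group had a similar operation. RNA of the heart was taken 4 weeks after surgery, and the 4 banded and 4 sham mice were each hybridised to an array of their own. The labels do not say that the heart was divided into chambers or cell types, so in these bulk samples fewer cells of a type and less RNA per cell cannot be told apart.

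LincRNAs are transcribed from stretches of the genome between protein-coding genes. Many are spliced and polyadenylated like messenger RNAs but carry no long reading frame, and as a class they are present at lower levels and in fewer tissues than messenger RNAs. In heart muscle, some long noncoding RNAs are known to act on chromatin regulators, on splicing or as decoys for microRNAs, and several respond to pressure overload. Catalogues built from chromatin marks locate a transcribed region without giving its strand, and arrays made from such lists may carry a probe for each strand. The names of the probes on this array consist of a number and a sign, such as mouselincRNA1188-_P1. The files used here do not state what the sign stands for, and none of the 649 names (0) matched a gene symbol or synonym in the tables used. The transcripts are therefore given by probe name, with no gene, position, sequence or known role. For the same reason no marker of heart muscle or of another cell type was checked.

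Levels are given as the log2 of the processed signal relative to the 75th percentile of the noncontrol probes of the same array, so that 0 is the level of that percentile and a step of 1 is a factor of 2. The 75th-percentile signal lay between 143 and 255 scanner units, and no spot of these lincRNA probes was saturated. The file headers give each array its own place in 2 rows of 4, as on a slide. Of the banded arrays only banded 1 stood in row 1, beside sham 2, 3 and 4. Row 2 had the other banded arrays, numbers 2, 3 and 4, together with sham 1. In 4 pairs of neighbouring arrays the log2 differences over bright probes spread 0.969 to 1.34 times as widely as differences between copies of 1 spot, against 2.61 to 5.26 times in the other 24 pairs. Sham 3 and sham 4 formed such a pair and differed by less than this noise (0.990 times). Banded 2 and banded 3 formed another (1.34 times). Each of these was averaged and counted as 1 sample, which left 3 samples per group in the means and in the test. The remaining close pairs, banded 1 with sham 2 and banded 4 with sham 1, each join the surgery groups, and were kept apart as the labels have them. They were as close as pairs within a group (0.969 and 1.17 times the noise). Whether names were exchanged or RNA was shared in them cannot be told from these files, so every banded minus sham value below holds for the arrays as labelled.

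Most mouse-list lincRNA probes were well above background on no array in heart, and a minority were so on every array. Of the 649 probes, 338 (52.1%) were well above background on none of the 8 arrays and 150 (23.1%) on all 8. The number well above background on an array ran from 165 (25.4%) on banded 3 to 244 (37.6%) on banded 1. It was 208 on banded 2 and 201 on banded 4. On sham 1 to 4 it was 219, 214, 205 and 241, so the groups overlapped. At the ends the counts ran with the brightness of the array: banded 3 had the lowest 75th-percentile signal (143 units) and banded 1 the highest (255 units). Between them the order was not kept throughout, with 206 units on sham 2 and 203 on sham 4. A probe that was well above background on at least 4 arrays was tested, which gave 211 probes (32.5%). The human-list lincRNA probes of the same array gave nearly the same share, 32.9% of 1104, and the lincRNA exon probes 37.3% of 83. Among the remaining probes 59.5% were bright enough. No test of these differences in share was made, because probes on an array share its RNA and labelling.

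The tested lincRNA probes were dim as well as few. Their median level was −1.58 (quartiles −2.56 and −0.03), against −0.55 for the remaining tested probes, −1.83 for the human-list lincRNA probes and −1.20 for the exon probes. Only 51 of the 211 (24.2%) lay above the 75th percentile of the array, against 42.7% of the remaining probes, and 15 lay more than 3 log2 units above it. Since signals of different probes also depend on how well each probe binds, these levels order spots, not numbers of RNA molecules.

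**Figure D1:**
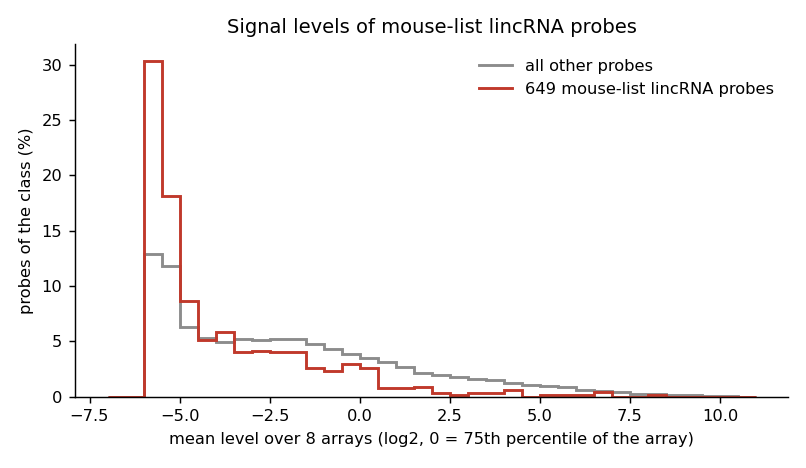
Share of probes (%) in each bin of mean level over 8 arrays (log2, 0 = 75th percentile of the array), for the 649 mouse-list lincRNA probes (red) and all other probes (grey). The lincRNA probes pile up at the background end on the left and thin out above 0, where 51 of the 211 tested probes lie.

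A few lincRNA probes were among the bright spots of the whole array. The brightest, mouselincRNA1188-_P1, read 8.47, 8.45, 7.12 and 8.75 on banded 1 to 4 and 7.77, 8.62, 8.63 and 8.69 on sham 1 to 4. That is 19800 to 90200 scanner units, and 308 probes of the array had a higher mean level. It was lowest on banded 3 and sham 1, both in slide row 2, and the groups overlapped. The next, mouselincRNA0305-_P1, read 6.86, 6.26, 6.18 and 6.83 in banded and 6.24, 6.80, 6.95 and 6.97 in sham hearts. mouselincRNA1606-_P1 read 7.03, 6.63, 5.55 and 6.82 in banded and 6.35, 6.75, 6.84 and 7.03 in sham hearts. For both, 3 of the 4 sham arrays lay close together and sham 1 lay below them.

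mouselincRNA0158-_P1 behaved otherwise. It read 6.63, 5.93, 5.63 and 6.75 in banded hearts and 7.60, 6.56, 6.65 and 6.72 in sham hearts. Sham 1 was the highest array here, well above banded 4, its close neighbour on the slide. mouselincRNA0161-_P1 separated 1 close pair from all other arrays: banded 2 and banded 3 read 5.96 and 6.06, while banded 1 and 4 read 4.84 and 4.74 and sham 1 to 4 read 4.82, 4.90, 4.79 and 4.72. The 6 low arrays lay close together, and the high pair stood more than 1 log2 unit above every one of them. Counted as 1 sample, that pair gave the banded group a mean of 5.20 ± 0.71 (SD, n = 3) against 4.82 ± 0.07 (SD, n = 3).

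The other brightest probes were mouselincRNA1437+_P1 (mean level 6.25), mouselincRNA1267-_P1 (5.89), mouselincRNA0453+_P1 (4.49), mouselincRNA0970-_P1 (4.49) and mouselincRNA0499+_P1 (4.46). In the last of these the sham arrays read 4.80, 4.75, 4.73 and 4.70, above banded 1 (4.61) and banded 4 (4.67) and well above banded 2 (3.66) and banded 3 (3.75). Its groups did not overlap, but its log2 difference of −0.43 (SE 0.28) was not past the threshold (limma adjusted p = 0.995). Among the 10 brightest, it was the only one without overlap.

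**Figure D2:**
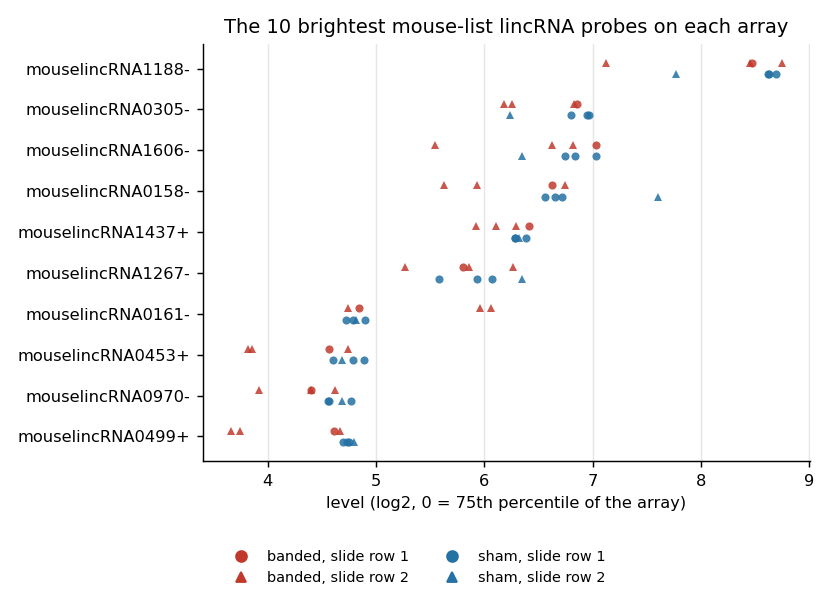
Level of the 10 brightest mouse-list lincRNA probes (log2, 0 = 75th percentile of the array) on each of the 4 banded arrays (red, upper) and 4 sham arrays (blue, lower), with circles for slide row 1 and triangles for row 2. The groups overlap in all but mouselincRNA0499+, and banded 2 and 3 stand apart at 5.96 and 6.06 for mouselincRNA0161-.

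Tested probes differed widely in how much they varied between arrays. Across the 211, the range from the lowest to the highest array had a median of 1.04 log2 units and ran from 0.34 to 4.19, and 112 probes spanned more than 1. The steadiest was mouselincRNA0344-_P1, which read 1.72, 1.72, 1.66 and 1.74 in banded and 1.59, 1.68, 1.93 and 1.81 in sham hearts. Over the 150 probes seen on all arrays, the SD over 8 arrays had a median of 0.33, against 0.29 for the remaining probes of the array. The error that the scanner software gave for a spot had a median of 11.5% of its signal over the tested lincRNA probes.

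The signs in the names allowed each transcript number to be read from opposite probes. The 649 names hold 332 numbers between 2 and 1671, of which 317 have a + and a - probe and 15 have 1 probe only. Usually no more than 1 of the signs was bright enough to test. Of the 317 numbers, 135 (42.6%) had 1 sign bright enough to test, 37 (11.7%) had both and 145 (45.7%) had neither. In 105 of the 135 (77.8%), the other partner was well above background on none of the 8 arrays. The + probe was the bright one in 61 and the - probe in 74. The signs were bright largely regardless of each other: the - probe was bright enough in 37.8% of the 98 numbers with a bright + probe, and in 33.8% of the 219 without. Across the 317 numbers, the mean levels of + and - probes had a correlation of −0.02, which is a description over probes that share the same 8 arrays.

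**Figure D3:**
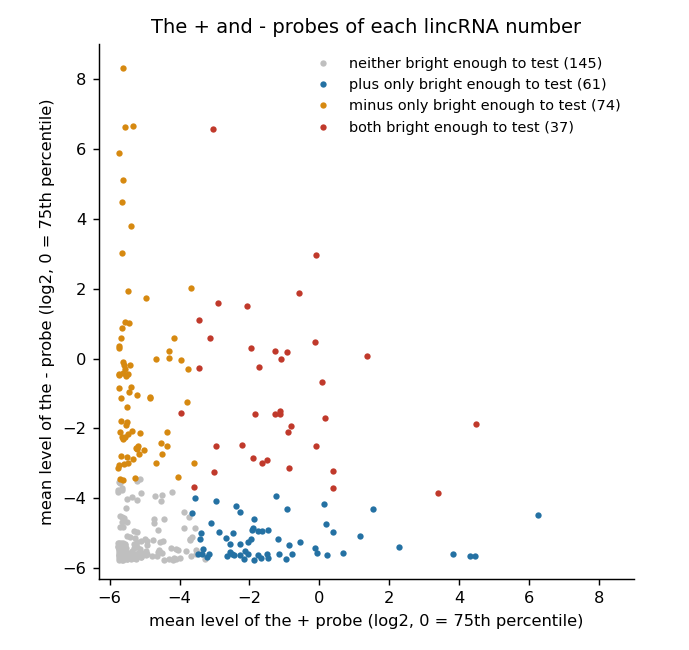
Mean level over 8 arrays of the - probe (vertical) against the + probe (horizontal) for 317 lincRNA numbers, both in log2 with 0 at the 75th percentile of the array, coloured by which sign was bright enough to test. The points lie along the 2 edges, with 61 numbers bright on + only, 74 on - only and 37 on both.

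Among the brightest probes the partners were mostly not well above background. For 8 of the 10, the partner of opposite sign was well above background on no array. For mouselincRNA1188-_P1, at a mean level of 8.31, the partner stood at −5.62, and only 7.90% of the probes of the array were dimmer. mouselincRNA0158-_P1 (mean level 6.56) and mouselincRNA0453+_P1 (4.49) were the exceptions. The partner mouselincRNA0158+_P1 was well above background on 6 arrays, and read −2.79, −3.03, −2.89 and −3.52 in banded and −3.05, −3.09, −3.37 and −2.63 in sham hearts. It did not share the high value of its partner on sham 1. mouselincRNA0453-_P1 was well above background on all 8 arrays at a mean level of −1.86.

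Among the 37 numbers with both signs bright enough, the mean levels of the partners lay a median of 1.49 log2 units apart. They were under 1 unit apart in 11 numbers and over 3 apart in another 11, up to 9.61 for number 0158. The + probe had the higher signal in 20 of the 37. Over the 8 arrays the levels of partners had a median correlation of 0.29 (range −0.73 to 0.89, above 0 in 22 of the 37), which is a description over shared arrays. Number 0543 lay near the upper end, with a correlation of 0.83: mouselincRNA0543-_P1 read 2.92, 2.16, 2.64 and 3.29 in banded and 3.22, 3.22, 3.03 and 3.17 in sham hearts, and mouselincRNA0543+_P1 read −0.07, −0.77, −0.52 and 0.11, and −0.26, 0.21, 0.27 and 0.30. Both were lowest on banded 2 and next lowest on banded 3. It was picked for description after its values were seen.

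The comparison of banded with sham hearts asks which transcripts differ in a heart 4 weeks into pressure overload. No lincRNA probe from the mouse lists was past the 0.05 threshold in the limma fit, whose p-values were adjusted by the Benjamini-Hochberg method over the 35785 probes tested: 0 of 211 were higher and 0 lower, where 0% of all probes tested were called, and the smallest adjusted p among the 211 was 0.995. At an unadjusted p under 0.05, 5 (2.37%) were lower in banded hearts, against 1.47% of all probes tested, and 2 (0.948%) were higher, against 0.559%. With all 8 arrays counted separately the call was again 0, with 17 lower (8.06%, against 3.89% of all probes) and 0 higher (against 3.19%) at an unadjusted p under 0.05. Of the 363 tested human-list lincRNA probes, 35 were lower and 8 higher in that fit. Measured over the 8 arrays, 12 of the 211 (5.69%; 9 of them well above background on all 8 arrays) were lower in every banded than in every sham heart, against 2.10% of all probes tested, and 0 were higher in every banded heart, against 1.22%. The human-list probes had 4.41% lower and 1.38% higher without overlap, and the exon probes 6.45% and 0%, so this was not seen in the mouse-list probes alone.

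Most estimates lay on the lower side. The log2 difference was below 0 for 148 of the 211 (70.1%), against 48.3% of all probes tested, and its median was −0.14 (quartiles −0.28 and 0.04), against 0.01. Of a single probe, the estimate had a median SE of 0.25. For the 51 lincRNA probes above the 75th percentile the median was −0.15, with 80.4% below 0, against 0.05 and 41.4% of the other probes there. For the 160 below it the median was −0.14, with 66.9% below 0, against −0.02 and 53.1%. The human-list lincRNA probes had a median of −0.13, with 68.9% below 0, and the exon probes −0.07, with 64.5%, so the shift was not seen in the mouse-list probes alone. Whether the classes differ was not tested.

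Within each slide row the median was on the lower side, with every array counted separately, also those of close pairs. Within row 1, where the only banded array is banded 1, the median was −0.07 with 60.7% of the lincRNA probes below 0, against −0.02 and 52.3% of all probes. Within row 2, where the only sham array is sham 1, it was −0.17 with 63.5%, against 0.02 and 48.1%. The close pairs that join the groups were recognised by a small spread of differences over bright probes, not by the median of the lincRNA probes. In them, banded 1 minus sham 2 had a median of 0.00 with 105 of 211 probes below 0, and banded 4 minus sham 1 had −0.01 with 107. With the slide pair as a block the median was −0.04, with 54.5% of the lincRNA probes below 0, against a median of 0.01 for all probes. Array by array, the median of the 211 probes minus that of all other tested probes was −0.95, −1.07, −1.13 and −0.89 on banded 1 to 4 and −0.95, −0.89, −0.98 and −0.79 on sham 1 to 4. The groups overlapped, with the lowest values on banded 2 and 3 and the highest on sham 4. With the slide row as a term in the model of 8 arrays the median was −0.15, with 67.3% of the lincRNA probes below 0, against −0.18 and 73.0% for the same arrays without it.

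Among the probes with the lowest p on the lower side, mouselincRNA0971+_P1 read −2.02, −1.81, −1.96 and −2.44 in banded and −1.38, −1.53, −1.80 and −1.11 in sham hearts. Every banded array lay below every sham array, although banded 2 and sham 3 almost touched. The log2 difference was −0.66 (SE 0.20), a ratio of 0.633. mouselincRNA0366+_P1 read −3.44, −3.45, −3.37 and −3.54 against −2.96, −2.68, −3.09 and −3.02, with a log2 difference of −0.57 (SE 0.18). It was well above background on 4 of 4 sham arrays but only 1 of 4 banded arrays, so it entered the test through the group where it was higher. With normexp on median signals, which added an offset of 50 scanner units, the difference was −0.10.

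mouselincRNA1054-_P1 read −0.79, −0.44, −0.99 and −0.60 in banded and −0.27, −0.29, 0.17 and −0.35 in sham hearts, a log2 difference of −0.49 (SE 0.17). mouselincRNA0714+_P1 read −2.03, −2.23, −2.27 and −2.11 against −1.78, −1.65, −1.43 and −1.34, a log2 difference of −0.53 (SE 0.19). In both, the groups did not overlap. The partner of the latter, mouselincRNA0714-_P1, was well above background on all 8 arrays and had a difference of −0.18. mouselincRNA0079+_P1 read −2.29, −2.84, −3.45 and −2.76 against −1.81, −2.04, −2.38 and −2.14. Its groups overlapped by banded 1, and the log2 difference was −0.69 (SE 0.26). The limma adjusted p of these 5 probes was 0.995, so none passed the threshold.

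On the higher side, mouselincRNA0547+_P1 read −2.07, −1.55, −2.34 and −1.66 in banded and −2.51, −2.75, −2.35 and −2.01 in sham hearts, a log2 difference of 0.59 (SE 0.22). Sham 4 lay above banded 1 and banded 3, so the groups overlapped. mouselincRNA0047-_P1 read −2.55, −1.99, −3.19 and −2.88 against −3.57, −3, −3.03 and −3.06, a log2 difference of 0.53 (SE 0.22). It was well above background on 3 arrays of each group.

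mouselincRNA1341-_P1 read −3.33, −2.85, −4.33 and −1.65 in banded and −4.11, −4.14, −3.89 and −3.38 in sham hearts. It was well above background on 3 banded arrays and 1 sham array, so it entered the test mainly through the group where it was higher. Its log2 difference of 1.11 (SE 0.49) was carried by banded 4. mouselincRNA0448+_P1 had the largest estimate of the tested lincRNA probes, 1.21 (SE 0.63), and it came from 1 array. It read 0.42 on banded 1 and −1.62, −2.15 and −2.18 on the other banded arrays, against −2.57, −2.59, −2.26 and −1.97 in sham hearts. Without banded 1 its difference was 0.39. mouselincRNA0907+_P1 had a log2 difference of 0.35 (SE 0.19). None of these 5 passed the threshold either (limma adjusted p = 0.995 for each). No lincRNA probe (0) was well above background on all arrays of one surgery group and on none of the other.

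**Figure D4:**
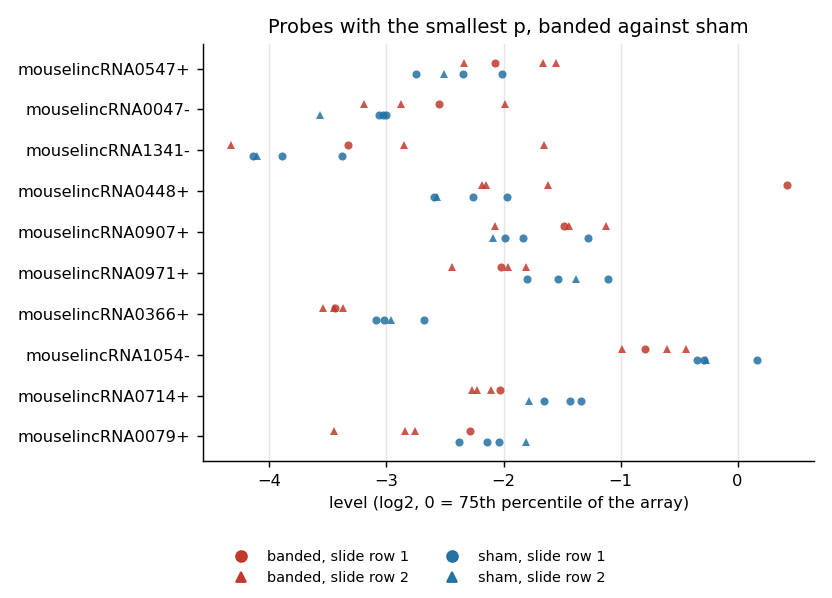
Level (log2, 0 = 75th percentile of the array) on each banded array (red, upper) and sham array (blue, lower) for the 5 lincRNA probes with the smallest p on the higher side (top) and the 5 on the lower side (bottom), with circles for slide row 1 and triangles for row 2. The upper 5 overlap between groups, with banded 1 alone at 0.42 for mouselincRNA0448+, while 4 of the lower 5 do not overlap, although none passed the threshold.

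The rows of the slide passed the threshold for some lincRNA probes. With 8 arrays counted separately, 18 of the 211 (8.53%) were past the 0.05 threshold of the same adjustment (limma) with a lower level in row 2, against 7.11% of all probes tested, and 1 (0.474%) was higher, against 12.6%. The share of lower probes was near the background and the share of higher probes below it, in a class with a median SE of 0.21 against 0.17 for all probes and a median row difference of −0.16 against −0.01. With each close pair counted as 1 sample, 3 (1.42%) were lower, against 1.18% of all probes, and 1 (0.474%) was higher, against 2.81%. No sign pair had both partners among the 19 called (0 such pairs).

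The largest row difference was that of mouselincRNA1623-_P1, which read 2.67 on banded 1 and 2.54, 2.74 and 2.71 on sham 2 to 4, all in row 1, and 1.29, 0.47, 1.93 and 1.08 on banded 2, 3 and 4 and sham 1, all in row 2. The arrays of row 1 lay close together and all arrays of row 2 lay lower. The log2 difference was −1.47 (SE 0.26, limma adjusted p = 0.00465), and it was past the threshold with close pairs counted once as well (limma adjusted p = 0.0270). mouselincRNA0508+_P1 read −1.31, −1.69, −1.95 and −1.53 in row 1 and −2.69, −3.03, −2.48 and −3.08 in row 2, a log2 difference of −1.20 (SE 0.18, limma adjusted p = 0.00211). mouselincRNA0288-_P1 read 0.52, 0.22, 0.44 and 0.65 in row 1 and −0.42, −1.07, −0.39 and −0.82 in row 2, a log2 difference of −1.13 (SE 0.18, limma adjusted p = 0.00235). In each of these, picked for their row difference, the rows did not overlap, so banded 1 and sham 1 necessarily lay on the side of their row.

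mouselincRNA1388-_P1 (mean levels −2.89 and −4 in rows 1 and 2) and mouselincRNA0655-_P1 (−3.16 and −4.23) were past the threshold with 8 arrays (limma adjusted p = 0.0125 and 0.0196), but not with close pairs counted once (0.0861 and 0.0623). Both were well above background on the 4 arrays of row 1 and on 0 of row 2, so they entered the test through the row where they were high. Against the dimmest signal well above background on each array of row 2, the level of row 1 was at least 1.31-fold higher for mouselincRNA1388-_P1 and at least 1.08-fold higher for mouselincRNA0655-_P1. The single probe that was higher in row 2, mouselincRNA0185-_P1, read −2.48, −2.42, −2.50 and −2.04 in row 1 and −1.99, −1.47, −1.93 and −1.75 in row 2. Its log2 difference was 0.57 (SE 0.16, limma adjusted p = 0.0342), and 0.215 was the adjusted p with close pairs counted once. For the 5 probes named for surgery on the lower side, the row difference was −0.29 (0971+), −0.27 (0366+), −0.26 (1054-), −0.49 (0714+) and −0.50 (0079+). On the higher side it was 0.28 (0547+), 0 (0047-), 0.45 (1341-), −0.53 (0448+) and −0.04 (0907+). None of these probes was among the 19 called for the row. The rows hold unequal numbers of banded and sham arrays, and with surgery in the model the count of lower probes fell from 18 to 9.

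**Figure D5:**
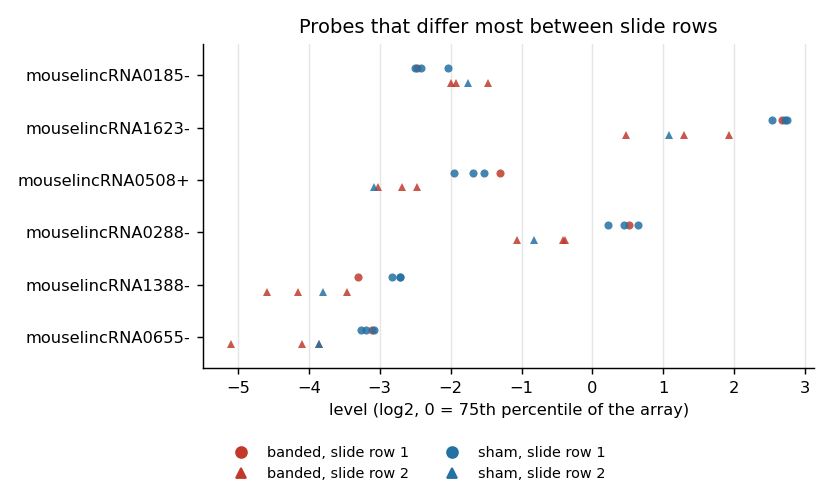
Level (log2, 0 = 75th percentile of the array) of the 6 lincRNA probes named for the difference between slide rows, with row 1 as circles (upper) and row 2 as triangles (lower), banded in red and sham in blue. For each probe the rows do not overlap, so the 1 banded array of row 1 and the 1 sham array of row 2 lie on the side of their row (the row 2 points of mouselincRNA1388- and mouselincRNA0655- are not well above background).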

How the data were processed

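RNA of 8 hearts was measured on 8 arrays. Per the file headers, the authors read spot intensity in Agilent Feature Extraction (version 11.0.1.1), whose processed signal has the background subtracted, and which wrote 0 or 1 flags for spots well above background, saturated or outlying. A deposited table of the authors' log2 values, made in a way that no source used here gives, had slopes of 0.984 to 1.02 against log2 scanner values of the same array and column medians of 4.927 or 4.928; it served only as an alternative, and its between-array scaling is unknown. Processed intensity was averaged per probe on the log2 scale over unflagged spots, after 15 negative probes were set aside, and an array's 75th percentile was then subtracted from all its values. In all, 2 of the spots of these lincRNA probes were flagged and left out of the levels, but not of the counts of spots well above background. Probes well above background on at least 4 arrays were fitted with limma 3.58.1 (lmFit, eBayes) in R 4.3.3, with two-sided p-values, Benjamini-Hochberg adjustment over all 35785 and a threshold of 0.05. The fit was tested on simulated data with independent samples. That check was on mean estimates and does not show whether differences as small as those seen here would be called. Spot noise was the pooled SD (0.0848, log2) between 20 copies of 14 genes; with the median SD (0.0601) banded 2 and 3 differed by 1.88 times the noise and sham 3 and 4 by 1.40, so the averaging at under 1.5 depends on that choice. The labels name separate mice but nothing else on how samples were prepared apart. The number of arrays limits the precision. Plots were drawn with matplotlib 3.10.9 in Python 3.11.15.

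Named probes are the 10 brightest on all arrays, the 5 with the smallest p in each direction, any seen in 1 surgery group only, and the 5 most different between slide rows in each direction, where that many passed. Members, lists and tests were chosen with earlier results of these data known. Alternatives covered averaging, normalization, background correction, filters, blocks, array weights and single arrays left out.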

Additional observations from a re-analysis of the deposited data

Results flagged for a closer look

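Within the 4 arrays of a surgery group, an array was noted when its gap to the next array took up most of the range of the group (Dixon's ratio above 0.829). That was so in 9 of 74 groups. Chance gives about 1 in 20, but the probes were not drawn at random: some were named for a slide row difference, which sets sham 1 apart, and others for their values, so the count is not to be read against that rate. Sham 1 was the lowest sham array for mouselincRNA1188-_P1 (7.77, next 8.62), mouselincRNA0047-_P1 (−3.57, next −3.06), mouselincRNA1623-_P1 (1.08, next 2.54), mouselincRNA1388-_P1 (−3.80, next −2.83) and mouselincRNA0543+_P1 (−0.26, next 0.21). It was the highest for mouselincRNA0158-_P1 (7.60, next 6.72). Sham 1 is the only sham array in slide row 2, so row and mouse cannot be told apart in these values. Sham 3 was the highest sham array for mouselincRNA1054-_P1 (0.17, next −0.27). mouselincRNA0543+_P1 was picked after its values were seen, and so were the remaining 2: mouselincRNA1348+_P1 stood at 2.71 on sham 4 (next −5.55) and mouselincRNA1559-_P1 at 0.20 on sham 3 (next −3.04).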

How the results depend on the processing

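The count of lincRNA probes past the threshold between banded and sham hearts was 0 under all 21 alternatives. Over all probes it was 0 too, except 1 with array quality weights and 1048 without banded 1 and sham 1, where surgery and row coincide. None of the 10 probes named for surgery changed direction in any alternative that tested it, but their sizes moved: the lower ones ranged from −0.77 to −0.31 (mouselincRNA0971+_P1), −0.67 to −0.10 (0366+), −0.58 to −0.33 (1054-), −0.76 to −0.16 (0714+) and −0.91 to −0.19 (0079+), and the higher ones from 0.29 to 0.77 (0547+), 0.21 to 0.73 (0047-), 0.30 to 1.64 (1341-), 0.32 to 1.70 (0448+) and 0.17 to 0.51 (0907+). Normexp gave the smallest size in 8 of the 10. It was run with an offset of 50 scanner units added to each spot, which by itself makes log2 differences of dim spots smaller. At an unadjusted p under 0.05, the numbers higher and lower (2 and 5 as reported) were 0 and 17 with 8 arrays separately, 8 and 14 with no background filter, 1 and 3 for probes seen on all 8 arrays, 5 and 14 with the slide row in the model, 6 and 14 when slide pairs were blocks, and 1 and 3 with normexp on median signals. The higher count was 1 with quantile normalization, median centring or the authors' table, and the lower count 61 with array quality weights. With those weights 12362 of all 35785 probes had such a p in either direction. Without banded 1 and sham 1 together the numbers were 1 and 18 of 191, against 6076 of all 33866 probes in either direction. Over all probes it was 2533 of 35785 with 8 arrays separately, 1400 of 60913 with no filter and 493 of 29578 seen on all 8 arrays. With the slide row it was 1978, with the pair block 1738 and with normexp 444, each of 35785. Leaving out 1 array gave 0 to 5 lincRNA probes higher and 4 to 10 lower. With no background filter 649 probes were tested and 342 had a lower estimate, and with 1 array left out 197 to 211 and 134 to 150. The median difference (−0.14; −0.18 to −0.13 with 1 array left out) was −0.02 with no filter, −0.04 with the pair block, −0.22 with weights and −0.05 with normexp; relative to all probes (−0.15) it was −0.03, −0.04 and −0.07 with no filter, the pair block and normexp, and −0.20 to −0.14 with 1 array left out. The slide row count (18 lower, 1 higher) was 3 lower with close pairs once and 9 lower with surgery in the model, and 5 (without sham 4) to 16 lower and 0 to 4 higher with 1 array left out. It was 6 without banded 1, 11 without banded 3, 8 without sham 2 and 7 without sham 3. The cause of these changes was not tested. Mouse numbers share only a number (correlation of deviations −0.65 to −0.05); with them as a replicate block, 0 were higher and 9 lower. Normexp on mean signals was not run, since the files hold median signals, which were used instead; this, leaving out banded 1 and sham 1, and surgery in the row model were chosen after seeing the data. Near background, level differences are limited by signal: 150 of the 211 tested probes were well above it on every array.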

Other observations

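Some lincRNA probes were seen on 1 array only. There were 66 (10.2%), against 10.6% of the human-list lincRNA probes, 13.3% of the exon probes and 7.14% of the probes outside the lincRNA classes. They included 14 on banded 1 and 5 to 11 on each of the other arrays, and 64 of them had an unflagged level there. In 25 (3.85% of the 649, against 1.85% of all other probes) the array stood more than 2 log2 units above the next. The farthest was mouselincRNA1348+_P1, at 1330 scanner units on sham 4 and not well above background on the rest, sham 3 included.

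Close neighbours also differed in single probes. Between banded 1 and sham 2, 3 of the 211 tested lincRNA probes differed at least 2-fold (1.42%, against 1.32% of all probes), led by mouselincRNA0448+_P1 at 3.01 log2 units. Between sham 3 and sham 4 it was 3 as well (1.42%, against 1.97%), led by mouselincRNA1559-_P1 at 3.23. Between banded 4 and sham 1 it was 17 (8.06%, against 3.72%), led by mouselincRNA1400-_P1 at 2.53, and between banded 2 and banded 3 it was 28 (13.3%, against 5.05%), led by mouselincRNA0538-_P1 at 2.62. The latter 2 pairs lie in row 2.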
